A study of Mus musculus with 40 samples.

Results

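Adipsin (Cfd, complement factor D) and 8 further complement genes were followed in the subcutaneous white fat (sWAT) of mice. The 9 genes, Cfd, C3, Cfb, C4b, C2, C1qa, C1qb, C1qc and Cfp, were taken by symbol from the 34843 symbols of the gene count table, and all 9 were among the 15807 genes with enough counts to be tested. The tissue came from 5 groups of mice with 8 libraries each: mice on a high-fat diet (HFD) given tirzepatide, mice on HFD given semaglutide, mice moved from HFD back to a normal diet (the diet switch), mice kept on HFD, and mice fed the normal diet (ND). Tirzepatide activates the GIP and GLP-1 receptors and semaglutide the GLP-1 receptor. RNA was counted by QuantSeq, which reads 1 tag near the 3′ end of each transcript. The libraries held between 2115471 and 7445548 counts. The labels give no strain, sex, age, dose or duration, and they do not say whether the diet switch mice had received a drug before the switch, although the series title places a dietary intervention after incretin treatment. Nor do they say that each library is a separate mouse, so p-values here reflect only how far the libraries of a group spread, which may be technical.

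Complement is a cascade of plasma and tissue proteases that ends in the marking and lysis of targets and in the release of small inflammatory peptides. In the classical route, C1q recognises a target, and its proteases cleave C4 and C2 to form an enzyme that cleaves C3. In the alternative route, factor D cleaves factor B bound to C3b, and properdin stabilises the enzyme that results. Most complement proteins in blood come from the liver, but adipocytes are the main source of factor D, which was first described as adipsin in mouse fat cells and is known to be low in obese rodents. C1q is made chiefly by macrophages.

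Some libraries stood apart from their group. On the main axis of variation within groups, which held 11.6% of that variance, diet switch libraries 3 and 4 lay lowest (-53.6 and -46.1), followed by HFD library 3 (-35.9) and diet switch library 7 (-35.1), and diet switch libraries 1 and 2 lay highest (59.3 and 50.7). Leaving out HFD library 3 changed the call of no member in any of the 10 comparisons. Muscle markers had a mean level above 5 log2 CPM in 10 of the 40 libraries, 4 of them in the tirzepatide, 3 in the diet switch, 1 in the HFD and 2 in the ND group, and B cell markers in 4, of which 3 were semaglutide libraries and 1 was ND. The defining stromal markers Dcn and Pdgfra were higher after the diet switch than in HFD (0.71 ± 0.22, adjusted p = 0.0157, and 0.89 ± 0.16, adjusted p = 7.52e-05). Of 8 stromal markers, 4 were higher and 0 lower there, beside 12.8% and 10.9% of all genes. Against the switch, 0 were higher and 3 lower with semaglutide. Their summed level was 3065 to 7387 CPM after the switch, 2447 to 4450 CPM in HFD and 1829 to 3615 CPM with semaglutide. It was 2381 to 4428 CPM with tirzepatide and 2047 to 4965 CPM in ND tissue. The part of stromal cells in the C4b values was not tested. Hepatocyte markers were low, with summed levels of 4.93 to 28.2 CPM with tirzepatide, 6.42 to 25.0 CPM with semaglutide, 11.1 to 33.6 CPM after the switch, 4.18 to 20.7 CPM in HFD and 18.6 to 67.5 CPM in ND tissue. Alb was lower in HFD than in ND, with a log2 fold change of -2.05 ± 0.38 (adjusted p = 4.66e-04), and the part of these cells in the C3, C4b and C2 values was not tested.

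Cfd was the member that moved furthest in all 4 comparisons with HFD. It was lower in HFD than in ND mice and higher in all 3 intervention groups than in HFD mice. C2, C4b and C3 moved the same way with smaller changes: all 3 were lower in HFD than in ND tissue and higher with tirzepatide, C2 and C4b were higher after the diet switch, and none of the 3 passed the test with semaglutide. C1qa, C1qb, Cfp and Cfb passed the test in none of the 10 comparisons between groups, whereas C1qc was lower after the diet switch.

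Counts of members called are set beside all genes tested, a gene being called at an adjusted p under 0.05. The members, and the gene lists used below, were chosen with earlier results of these data known. The counts therefore describe these genes and are not a test of enrichment. In HFD against ND, 4 of 9 members were lower (Cfd, C2, C3 and C4b) and none was higher, where 1.68% of all genes were lower and 2.83% were higher. The median log2 fold change of the 9 members was -0.30, beside -0.04 over all genes. With tirzepatide against HFD, 4 of 9 were higher (the same 4 genes), where 9.79% of all genes were higher and 10.7% were lower, and the members' median was 0.28, beside 0.03 over all genes. With semaglutide, 1 of 9 was higher (Cfd), where 1.52% of all genes were higher and 2.63% were lower, with a median of 0.07, beside 0.05. After the diet switch, 3 of 9 were higher (Cfd, C2 and C4b) and 1 was lower (C1qc), where 12.8% of all genes were higher and 10.9% were lower, with a median of 0.50, beside 0.03. The count of 1 lower was near the share over all genes.

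**Figure D1:**
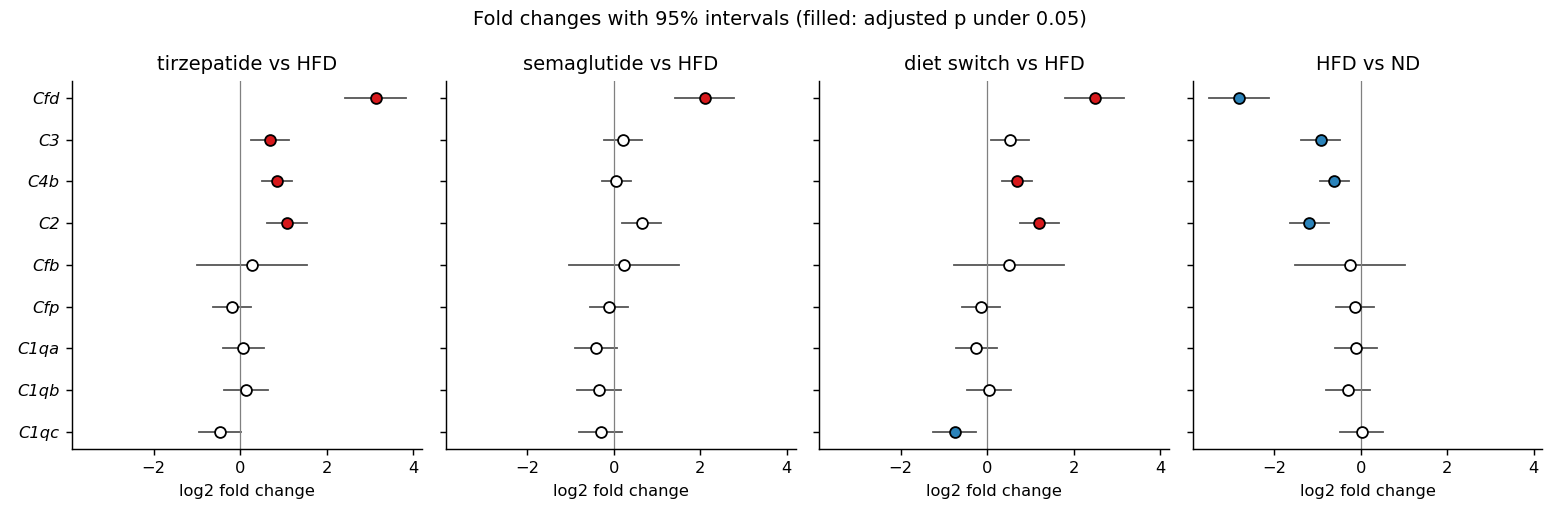
Log2 fold change of each of the 9 genes with its 95% interval in the 3 interventions against HFD and in HFD against ND. Filled points passed the test: Cfd, C3, C4b and C2 with tirzepatide, Cfd with semaglutide, Cfd, C4b, C2 and C1qc after the diet switch, and Cfd, C3, C4b and C2 in HFD against ND.

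In the comparisons with ND, edgeR called no member with tirzepatide, where it called 10.1% of all genes, and none with semaglutide, where it called 2.64%. With an unadjusted p under 0.05 there were 0 members with tirzepatide and 6 with semaglutide. DESeq2 and limma-voom called 0 and 0 members with tirzepatide, and 2 and 2 with semaglutide (C3 and C4b, both lower). Over all genes, limma-voom called 2483 with tirzepatide and 970 with semaglutide, where edgeR called 1591 and 417. The shares of all genes by DESeq2 or at an unadjusted p under 0.05 are not given here, so those member counts have no like share beside them. The diet switch had 1 member lower than ND (C1qc), where 6.82% of all genes were lower. Tirzepatide had 2 members higher than semaglutide (Cfd and C4b), where 4.11% of all genes were higher. Semaglutide had 1 member lower than the diet switch (C4b), where 7% of all genes were lower, and tirzepatide had none called against the diet switch, where 0.399% of all genes were called (0 members with an unadjusted p under 0.05, and 0 by DESeq2 and 0 by limma-voom).

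Among the 9 genes, 5 had an entry in the RefSeq promoter table (build GRCm38.p6), which spans 250 bases before to 50 bases after the transcript start. The promoters of Cfd and C3 are shown as those of a pair of members lower in HFD tissue, and those of C1qb and C1qc as those of neighbouring genes whose levels relative to each other changed. Each runs 5′ to 3′ on the strand of its gene. Capitals mark matches on either strand to any of 4 motifs, the TATA box TATAAA, the E-box CANNTG, the C/EBP motif TTGCNNAA and the PU.1 motif GAGGAA, and no matches overlapped. The Cfd window is chr10:79890603-79890902 on the plus strand, the C3 window chr17:57228087-57228386 on the minus strand, the C1qb window chr4:136886151-136886450 on the minus strand and the C1qc window chr4:136892865-136893164 on the minus strand.
Cfd: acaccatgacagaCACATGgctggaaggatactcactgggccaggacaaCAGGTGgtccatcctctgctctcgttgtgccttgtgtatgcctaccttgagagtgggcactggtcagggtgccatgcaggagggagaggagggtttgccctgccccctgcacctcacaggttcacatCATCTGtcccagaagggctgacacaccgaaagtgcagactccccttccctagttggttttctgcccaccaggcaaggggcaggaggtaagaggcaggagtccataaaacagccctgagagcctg
C3: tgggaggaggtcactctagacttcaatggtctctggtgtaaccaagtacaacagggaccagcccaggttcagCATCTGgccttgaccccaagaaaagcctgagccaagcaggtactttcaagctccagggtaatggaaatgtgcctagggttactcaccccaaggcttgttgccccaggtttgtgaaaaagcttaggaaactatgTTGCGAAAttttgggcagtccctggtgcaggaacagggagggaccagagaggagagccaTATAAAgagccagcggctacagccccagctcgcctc
C1qb: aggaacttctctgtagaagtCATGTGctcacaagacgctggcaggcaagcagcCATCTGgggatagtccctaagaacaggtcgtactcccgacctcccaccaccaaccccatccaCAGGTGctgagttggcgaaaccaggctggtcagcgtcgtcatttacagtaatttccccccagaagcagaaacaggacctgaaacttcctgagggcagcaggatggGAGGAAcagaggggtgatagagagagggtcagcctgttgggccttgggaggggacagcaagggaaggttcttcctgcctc
C1qc: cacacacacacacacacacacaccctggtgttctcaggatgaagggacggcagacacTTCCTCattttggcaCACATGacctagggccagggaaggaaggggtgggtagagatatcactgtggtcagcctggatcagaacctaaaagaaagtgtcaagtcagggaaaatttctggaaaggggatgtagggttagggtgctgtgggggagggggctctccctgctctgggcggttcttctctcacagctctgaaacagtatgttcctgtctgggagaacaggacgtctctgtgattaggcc

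The Cfd window held 3 E-boxes, which start at -237, -201 and -74 from the transcript start. The C3 window held a C/EBP motif at -45, an E-box at -178 and a TATA box at 15. The C1qb window held 3 E-boxes and a PU.1 motif at -30, and the C1qc window held 1 E-box at -178 and a PU.1 motif on the opposite strand at -193. Of 32851 promoters of this length, 72.3% held the E-box, 28.3% the PU.1 motif, 13.6% the TATA box and 10.8% the C/EBP motif. A match describes the letters of the window and says nothing of binding.

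The alternative route starts with Cfd (ENSMUSG00000061780, chr10:79890853-79892655 on the plus strand of GRCm38). Normalised Cfd levels, in CPM (counts scaled to the library's total), had a lowest, median and highest value of 4317, 6767 and 11265 with tirzepatide and of 888, 3209 and 7877 with semaglutide. After the diet switch they were 3228, 3903 and 7672 CPM, in HFD tissue 271, 643 and 1649 CPM, and in ND tissue 4050, 4810 and 8232 CPM. All libraries of the tirzepatide, diet switch and ND groups lay above all HFD libraries, and 7 of the 8 semaglutide libraries did so, the exception being semaglutide library 3 at 888 CPM. Cfd took a median of 0.700% of all counts in tirzepatide libraries, 0.343% in semaglutide libraries, 0.404% after the diet switch, 0.0578% in HFD libraries and 0.479% in ND libraries.

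**Figure D2:**
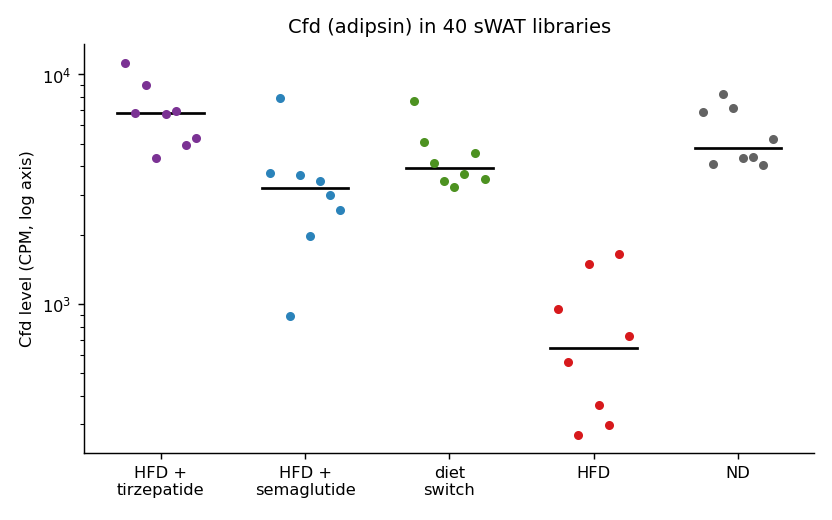
Cfd level (CPM, log axis) in each of the 40 libraries, by group, with a bar at the median of each group's 8 libraries. The HFD libraries lie between 271 and 1649 CPM, below all tirzepatide, diet switch and ND libraries, and 1 semaglutide library lies within the HFD range.

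Against ND, Cfd fell by 2.81 ± 0.35 on the log2 scale in HFD tissue (SE, n = 8 each, edgeR adjusted p = 3.83e-07), which is 0.143 times the ND level. Against HFD, the log2 fold change was 3.13 ± 0.35 with tirzepatide (adjusted p = 3.37e-08), 2.10 ± 0.34 with semaglutide (adjusted p = 1.38e-04) and 2.48 ± 0.34 after the diet switch (adjusted p = 1.84e-06). The 3 intervention comparisons use the same 8 HFD libraries, which are also those set against ND. Cfd kept its call and direction in these 4 comparisons under every alternative run. In a bulk sample, fewer cells of a type and less RNA per cell cannot be told apart. Adipocyte markers can be set beside these values: the summed level of 10 of them ranged over 15473 to 26190 CPM with tirzepatide, 12833 to 25749 CPM with semaglutide, 15516 to 25535 CPM after the diet switch, 20906 to 27703 CPM in HFD and 11894 to 23904 CPM in ND tissue. Those 10 markers did not move as one. In HFD against ND, 2 were higher (Fabp4 and Cidec) and 2 lower (Retn and Slc2a4), beside 2.83% and 1.68% of all genes. Against HFD 1 was higher and 3 were lower with tirzepatide, beside 9.79% and 10.7% of all genes. With semaglutide 0 were higher and 1 lower, beside 1.52% and 2.63%. After the diet switch 1 was higher and 1 lower, beside 12.8% and 10.9%, which is near those shares. Taken relative to the sum of the 10 within each library, Cfd was lower in HFD than in ND (log2 difference -3.42) and higher than in HFD by 3.79 with tirzepatide, 2.49 with semaglutide and 3.02 after the diet switch. In exact two-sided permutation tests these 4 differences had adjusted p-values of 7.23e-04, 7.23e-04, 0.00272 and 7.23e-04 over a family of 28 ratio comparisons chosen after the levels were seen. Relative to Adipoq alone, which encodes adiponectin and had a log2 fold change of -0.01 ± 0.17 in HFD against ND (adjusted p = 0.983), the differences were -3.09, 3.41, 2.27 and 2.73 in the same order. The part of adipocyte content in the Cfd values was not tested beyond these ratios. The smallest unadjusted p that 8 libraries against 8 allow is 1.55e-04.

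Set against ND instead, Cfd had a log2 fold change of 0.32 ± 0.32 with tirzepatide (95% interval -0.33 to 0.97), -0.71 ± 0.32 with semaglutide (-1.36 to -0.05) and -0.33 ± 0.32 after the diet switch (-0.98 to 0.32), and none passed the test. In order of mean log2 level the groups stood tirzepatide, ND, diet switch, semaglutide and HFD, and of neighbours in that order semaglutide and HFD alone passed the test. Tirzepatide and semaglutide differed directly: Cfd was higher by 1.03 ± 0.33 with tirzepatide (adjusted p = 0.0381), and all 8 tirzepatide libraries lay above the semaglutide median. That call was lost on leaving out any 1 of semaglutide libraries 1, 3, 5, 6, 7 and 8 or tirzepatide libraries 1, 2 and 3, with adjusted p between 0.0505 and 0.0827. It was also lost without the 4 libraries with a mean B cell marker level above 5 log2 CPM, of which 3 are semaglutide libraries (0.79, adjusted p = 0.200), and without the 10 with a mean muscle marker level above 5 log2 CPM (1.05, adjusted p = 0.138).

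C3 (ENSMUSG00000024164, chr17:57203970-57228136 on the minus strand) encodes the protein on which both routes converge. C3 levels had a lowest, median and highest value of 109, 209 and 305 CPM with tirzepatide, 77.1, 130 and 260 CPM with semaglutide and 115, 173 and 272 CPM after the diet switch. In HFD tissue they were 74.6, 125 and 181 CPM, and in ND tissue 148, 233 and 305 CPM. All 8 HFD libraries lay below the ND median, although the groups overlapped. C3 fell by 0.93 ± 0.22 on the log2 scale in HFD against ND (adjusted p = 0.00613) and was higher than in HFD by 0.69 ± 0.22 with tirzepatide (adjusted p = 0.0212). The tirzepatide call was lost without HFD library 2 or 5 or tirzepatide library 3, with the largest adjusted p at 0.0615. For semaglutide the log2 fold change against HFD was 0.22 ± 0.22 (adjusted p = 0.631), and for the diet switch 0.53 ± 0.22 (adjusted p = 0.0739), which passed without any 1 of HFD library 4 and diet switch libraries 6 and 8 (smallest adjusted p = 0.0467).

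Cfb and Cfp complete the alternative route. Cfb (chr17:34856374-34862518, minus strand), which encodes factor B, the substrate of factor D, was low, at 0 to 5.97 CPM over all 40 libraries. Its log2 fold changes against HFD in the 3 interventions had 95% intervals with a lowest bound of -1.03 and a highest of 1.76, so changes of the size seen for C3 were not detectable at this depth. The gene model Gm20547, which is not used here, overlaps Cfb on the same strand and shares a run of 262 of the last 300 bases, so the Cfb count is uncertain. Cfp (chrX:20925454-20931555, minus strand), which encodes properdin, had group medians of 39.8 CPM with tirzepatide, 40.0 CPM with semaglutide, 39.9 CPM after the diet switch, 47.2 CPM in HFD and 49.3 CPM in ND tissue. Its log2 fold changes in the 3 intervention comparisons with HFD lay between -0.19 and -0.10 and passed no test.

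In the classical route, C4b and C2 supply the enzyme that cleaves C3. C4b (ENSMUSG00000073418, chr17:34728380-34743882, minus strand) had a lowest, median and highest level of 264, 347 and 449 CPM with tirzepatide, 121, 196 and 310 CPM with semaglutide and 207, 303 and 444 CPM after the diet switch. The values were 142, 193 and 268 CPM in HFD tissue and 196, 300.3 and 420 CPM in ND tissue. The semaglutide group thus lay over the range of the HFD group, while 7 of 8 libraries of the tirzepatide group and of the diet switch group lay above all HFD libraries. C4b fell by 0.61 ± 0.17 in HFD against ND (adjusted p = 0.0258) and was higher than in HFD by 0.84 ± 0.17 with tirzepatide (adjusted p = 3.98e-04) and by 0.69 ± 0.17 after the diet switch (adjusted p = 0.00277). With semaglutide the difference from HFD was 0.07 ± 0.17 (95% interval -0.28 to 0.41, adjusted p = 0.882). The 2 drugs differed: C4b was higher by 0.78 ± 0.17 with tirzepatide than with semaglutide (adjusted p = 0.00316), and it was lower with semaglutide than after the diet switch by 0.63 ± 0.17 (log2 fold change -0.63, adjusted p = 0.0118). The HFD call against ND was lost without ND library 1 or 3 or HFD library 5 or 6 (largest adjusted p = 0.0856). Without diet switch libraries 3, 4 and 7 together, the call of the diet switch against HFD was lost (0.56, adjusted p = 0.0624). The semaglutide call against the diet switch was lost without those 3 libraries (-0.49, adjusted p = 0.166), without the 10 libraries high in muscle markers (-0.62, adjusted p = 0.0523) and without the 4 high in B cell markers (-0.45, adjusted p = 0.103).

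C4b shares 98% of its last 300 bases with C4a, the neighbouring copy annotated as a processed transcript, including a run of 131 bases, so how the authors' counting divided tags between the pair is uncertain. The counts for C4a followed those of C4b, with a log2 fold change of -0.69 ± 0.17 in HFD against ND (adjusted p = 0.00741), 0.96 ± 0.17 with tirzepatide (adjusted p = 5.69e-05), 0.05 ± 0.17 with semaglutide (adjusted p = 0.905) and 0.76 ± 0.17 after the diet switch against HFD (adjusted p = 9.15e-04). The ratio of the pair within a library differed in none of these 4 comparisons by exact permutation (adjusted p between 0.227 and 0.924).

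C2 (ENSMUSG00000024371, chr17:34862604-34898265, minus strand) lies 85 bases upstream of Cfb and encodes the classical route's counterpart of factor B. C2 levels had a lowest, median and highest value of 39.4, 48.2 and 101 CPM with tirzepatide, 13.3, 47.7 and 60.4 CPM with semaglutide and 39.0, 56.5 and 91.4 CPM after the diet switch. In HFD tissue they were 17.7, 27.2 and 42.7 CPM, and in ND tissue 43.7, 57.6 and 93.3 CPM. Every HFD library lay below every ND library. C2 fell by 1.18 ± 0.23 in HFD against ND (adjusted p = 5.92e-04) and was higher than in HFD by 1.09 ± 0.23 with tirzepatide (adjusted p = 6.30e-04) and by 1.21 ± 0.23 after the diet switch (adjusted p = 1.67e-04). With semaglutide the log2 fold change was 0.65 ± 0.23 (adjusted p = 0.0918). Semaglutide library 3 had the lowest C2 level of all 40, and without it C2 passed the test at 0.78 (adjusted p = 0.0205). C2 also passed without HFD library 4 at 0.77 (adjusted p = 0.0497). It passed without the 4 libraries high in B cell markers, which include semaglutide library 3, at 0.82 (adjusted p = 0.0300), and with limma-voom on all libraries at 0.68 (adjusted p = 0.0301). C2 overlaps Gm20547 on the same strand and Zbtb12 on the other, and whether counting used strand is not given in the sources used here.

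**Figure D3:**
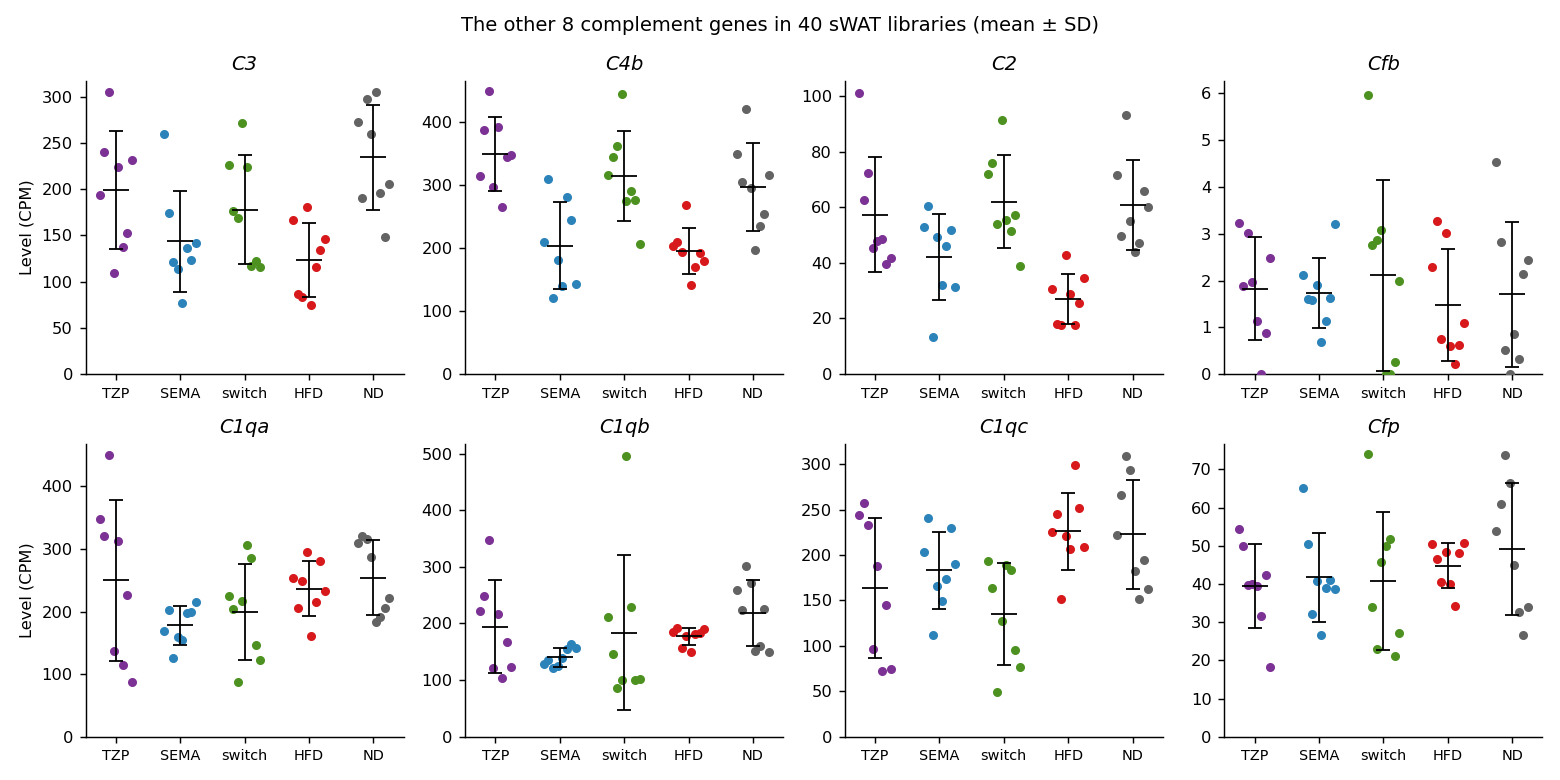
Level (CPM) of the 8 other complement genes in each of the 40 libraries, with the mean and SD of each group's 8 libraries (TZP, HFD with tirzepatide; SEMA, HFD with semaglutide; switch, diet switch). C2 shows no overlap between HFD and ND, Cfb stays below 5.97 CPM except in the diet switch library at that value, and C1qb has 1 diet switch library at 495 CPM.

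C1q, the recognition unit of the classical route, is built from chains encoded by C1qa, C1qb and C1qc, which lie in a row on the minus strand of chromosome 4 with 2851 bases between C1qc and C1qa and 3616 bases between C1qb and C1qc. C1qa had group medians of 270 CPM with tirzepatide, 184 CPM with semaglutide, 211 CPM after the diet switch, 241 CPM in HFD and 255 CPM in ND tissue, and it passed no test. C1qb had medians of 193 CPM with tirzepatide, 137 CPM with semaglutide, 124 CPM after the diet switch, 182 CPM in HFD and 225 CPM in ND tissue, and it passed no test either. Spread was wide for C1qa in the tirzepatide group, between 87.1 and 450 CPM. It was also wide for C1qb in the tirzepatide and diet switch groups, between 104 and 348 CPM and between 86.2 and 495 CPM. Diet switch library 5 held the highest C1qb level of its group. Without it the C1qb value after the switch against ND, -0.25 with all libraries, was -0.65 and passed the test (adjusted p = 0.0314). C1qb with semaglutide against ND, at -0.64 (adjusted p = 0.194), passed where those groups alone were fitted (adjusted p = 0.0186). Relative to the summed level of 12 macrophage markers within a library, C1qa averaged -2.05 ± 0.25 with semaglutide and -1.72 ± 0.19 in HFD (log2 ratio, SD, n = 8 each), a difference of -0.33 (exact permutation, adjusted p = 0.0189). That ratio passed in none of the other 3 comparisons (exact permutation, adjusted p between 0.227 and 0.312).

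C1qc had a lowest, median and highest level of 72.1, 166 and 257 CPM with tirzepatide, 112, 182 and 241 CPM with semaglutide and 49.7, 145 and 194 CPM after the diet switch. The values were 151, 223 and 299 CPM in HFD tissue and 151, 208 and 309 CPM in ND tissue. All 8 diet switch libraries lay below the HFD median, and 4 of them below all HFD libraries. C1qc fell by 0.74 ± 0.25 after the diet switch against HFD (adjusted p = 0.0234) and by 0.72 ± 0.25 against ND (adjusted p = 0.0402). Neither call held without diet switch libraries 3, 4 and 7 (-0.49 against HFD, adjusted p = 0.261, and -0.46 against ND, adjusted p = 0.388), and the call against HFD was also lost without any 1 of HFD library 6 and diet switch libraries 3, 7 and 8, with no filter on low counts (adjusted p = 0.0539) and against a minimum fold of 1.2 (adjusted p = 0.0631). The call against ND was lost without any 1 of ND libraries 1 to 4 and diet switch libraries 3, 4, 7 and 8, with the largest adjusted p at 0.0976. With tirzepatide against HFD the C1qc value was -0.47 ± 0.24 (adjusted p = 0.174). There limma-voom called it lower at -0.62 (adjusted p = 0.0271). The summed level of 12 macrophage markers ranged over 411 to 1406 CPM with tirzepatide, 576 to 1182 CPM with semaglutide, 470 to 972 CPM after the diet switch, 627 to 869 CPM in HFD and 615 to 805 CPM in ND tissue. Of those 12 markers Mertk was higher and Lyz2 was lower after the switch than in HFD, while the defining markers Adgre1 and Cd68 did not pass the test, and the part of macrophage content in the C1qc values was not tested.

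The level of C1qc relative to C1qa and to C1qb differed from HFD with tirzepatide and after the diet switch, and passed no test with semaglutide. These ratios were chosen after the levels were seen, so their p-values take up differences already seen in the same libraries. Within a library, the log2 ratio of C1qc to C1qb averaged -0.30 ± 0.30 with tirzepatide, 0.36 ± 0.31 with semaglutide, -0.32 ± 0.55 after the diet switch, 0.33 ± 0.23 in HFD and 0.03 ± 0.19 in ND tissue (SD, n = 8 each). In exact two-sided permutation tests it was lower than in HFD with tirzepatide by 0.63 (log2 difference -0.63, adjusted p = 0.00272) and after the diet switch by 0.66 (log2 difference -0.66, adjusted p = 0.0113), and it was 0.30 higher in HFD than in ND (adjusted p = 0.0264). With semaglutide it differed from HFD by 0.03 (exact permutation, adjusted p = 0.884). The ratio of C1qc to C1qa showed differences from HFD of -0.50 with tirzepatide (exact permutation, adjusted p = 0.0214) and -0.52 after the diet switch (exact permutation, adjusted p = 0.0186). That of C1qa to C1qb passed the test in none of the 4 comparisons (exact permutation, adjusted p between 0.281 and 0.608). Without diet switch libraries 3, 4 and 7 the C1qc to C1qa difference after the switch was -0.44 with an unadjusted exact p of 0.0583. Summed over matching runs, the last 300 bases are 47.7% identical between C1qa and C1qb and 45.3% between the neighbours C1qb and C1qc. The longest shared runs are 12 and 8 bases. The ends of C1qc and C1qa were not compared.

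**Figure D4:**
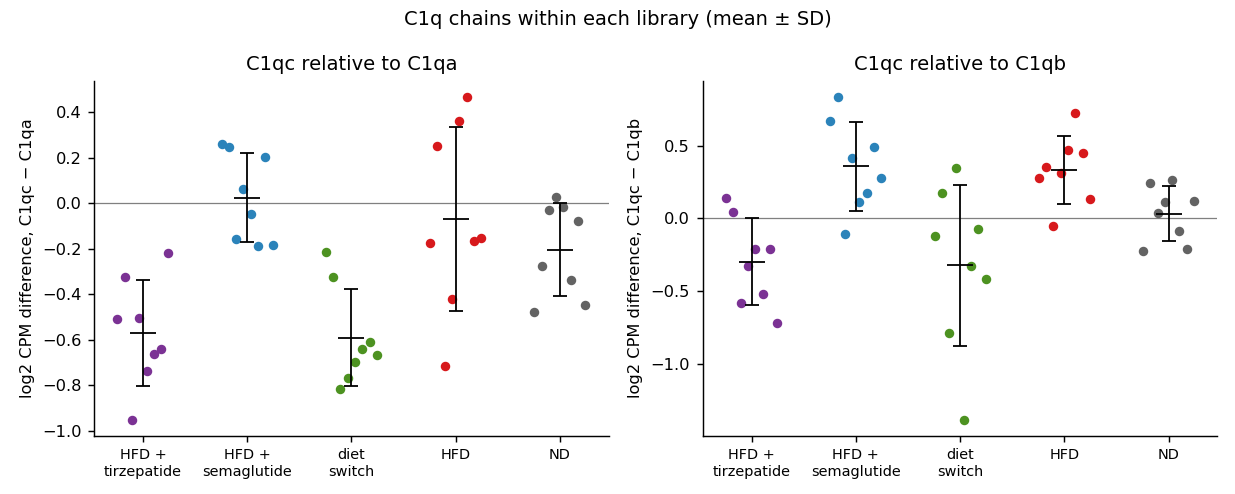
Difference in log2 CPM between C1qc and C1qa (left) and between C1qc and C1qb (right) in each library, with the mean and SD of each group's 8 libraries. The tirzepatide and diet switch means lie below 0 in both panels, at -0.57 and -0.59 against C1qa and at -0.30 and -0.32 against C1qb.

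Other genes of the complement system, 43 in 4 lists of which 28 were tested, did not all follow the members. Of these 28, 4 were higher and 2 lower in HFD against ND, where 2.83% of all genes were higher and 1.68% lower. Against HFD, 1 was higher and 4 were lower with tirzepatide, beside 9.79% and 10.7% of all genes, and 2 were higher and 5 lower after the diet switch, beside 12.8% and 10.9%. In both, the count in either direction was near the share over all genes. With semaglutide 2 were higher and 2 lower, beside 1.52% and 2.63% of all genes. The 7 tested initiators, among them C1ra and C1s1, the proteases carried by C1q, passed no test in the 4 comparisons with HFD. C1ra had mean levels of 123 CPM with tirzepatide, 119 CPM with semaglutide, 120 CPM after the diet switch, 91.2 CPM in HFD and 129 CPM in ND tissue. In the list of C4a, C5 and terminal components, C6, which encodes a subunit of the membrane attack complex, was lower than in HFD in all 3 interventions. C6 had medians of 6.63 CPM with tirzepatide, 11.9 CPM with semaglutide, 10.5 CPM after the diet switch, 36.4 CPM in HFD and 19.8 CPM in ND tissue. Its log2 fold change against HFD was -2.51 ± 0.33 with tirzepatide (adjusted p = 5.58e-07), -1.57 ± 0.31 with semaglutide (adjusted p = 0.00133) and -1.42 ± 0.31 after the diet switch (adjusted p = 8.26e-04), whereas in HFD against ND it was 0.51 ± 0.30 (adjusted p = 0.402). Tirzepatide and semaglutide did not overlap HFD.

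Of 10 regulators tested, which protect host cells or limit the cascade, 2 were higher and 1 was lower in HFD than in ND, beside 2.83% and 1.68% of all genes. Cd59a, which encodes an inhibitor of the membrane attack complex, had medians of 187 CPM with tirzepatide, 272 CPM with semaglutide, 202 CPM after the diet switch, 352 CPM in HFD and 163 CPM in ND tissue. It was higher in HFD than in ND by 1.22 ± 0.19 (adjusted p = 2.72e-05, no overlap), and it was lower than in HFD with tirzepatide by 0.97 ± 0.19 (log2 fold change -0.97, adjusted p = 2.50e-04), with semaglutide by 0.66 ± 0.19 (log2 fold change -0.66, adjusted p = 0.0334) and after the diet switch by 0.89 ± 0.19 (log2 fold change -0.89, adjusted p = 6.77e-04). Its paralog Cd59b was higher in HFD than in ND by 0.91 ± 0.20 (adjusted p = 0.00249), had log2 fold changes against HFD of -0.85 ± 0.20 with tirzepatide (adjusted p = 0.00169) and -0.80 ± 0.20 after the switch (adjusted p = 0.00258), and with semaglutide one of -0.41 ± 0.20 (adjusted p = 0.236). Clu, the soluble inhibitor clusterin, was lower in HFD than in ND (log2 fold change -1.65 ± 0.45, adjusted p = 0.0249) and higher with semaglutide than in HFD by 1.60 ± 0.45 (adjusted p = 0.0345). Without the 4 libraries high in B cell markers the semaglutide value for Clu was 0.15 (adjusted p = 0.901) and that for Cd59a was -0.44 (adjusted p = 0.185). The semaglutide call of Cd59a was lost on leaving out any 1 of HFD libraries 2, 3 and 5 and semaglutide libraries 1, 2 and 8 (largest adjusted p = 0.0865), and that of Clu on leaving out any 1 of HFD libraries 2, 3, 5, 6 and 8 and semaglutide libraries 1, 3 and 8 (largest adjusted p = 0.170, without semaglutide library 1). The Clu call with semaglutide was also lost with the replicate number as a block (1.45, adjusted p = 0.0521), with limma-voom (0.72, adjusted p = 0.171), with no filter on low counts, with those groups alone fitted and without the libraries high in muscle markers. In HFD against ND, the Clu call was lost on leaving out ND library 5 (-1.16, adjusted p = 0.126) or any 1 of HFD libraries 2, 3, 5 and 6. The other 7 regulators tested, Serping1 among them, passed none of these 4 tests.

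Of 8 receptors tested, 2 were higher and 0 lower in HFD than in ND, beside 2.83% and 1.68% of all genes. Against HFD, 0 were higher and 1 lower with tirzepatide, beside 9.79% and 10.7%. With semaglutide 1 was higher and 0 lower, beside 1.52% and 2.63%. After the diet switch 1 was higher and 2 lower, beside 12.8% and 10.9%. The tirzepatide counts and the higher count after the switch were near those shares. Itgax, the alpha chain of complement receptor 4, was higher in HFD than in ND by 1.41 ± 0.30 (adjusted p = 0.00194). After the diet switch Itgax had a log2 fold change against HFD of -1.52 ± 0.30 (adjusted p = 2.96e-04), with no overlap. Itgb2, the beta chain shared by complement receptors 3 and 4, had one of -0.98 ± 0.26 with tirzepatide (adjusted p = 0.00662) and -1.24 ± 0.27 after the diet switch (adjusted p = 7.42e-04). Itgam, the alpha chain of complement receptor 3, was higher after the switch than in HFD by 1.43 ± 0.29 (adjusted p = 4.65e-04) with values of 28.6 to 233 CPM in the 8 switch libraries against 18.4 to 51.7 CPM in HFD, and that call was lost without diet switch libraries 3, 4 and 7 (0.59, adjusted p = 0.131). Cd93 was higher in HFD than in ND by 0.73 ± 0.19 (adjusted p = 0.0109). The fifth receptor called, chosen for mention after its values were seen, was Cr2, higher with semaglutide than in HFD by 3.19 ± 0.94 (adjusted p = 0.0448), and without the 4 libraries high in B cell markers the value was 0.30 (adjusted p = 0.898). The Cr2 call was also lost on leaving out any 1 of semaglutide libraries 1, 3 and 8 or of HFD libraries 1, 2, 4, 5, 6, 7 and 8, and any 1 of tirzepatide libraries 2, 5 and 7 and diet switch library 6, which enter only the shared spread (largest adjusted p = 0.105).

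**Figure D5:**
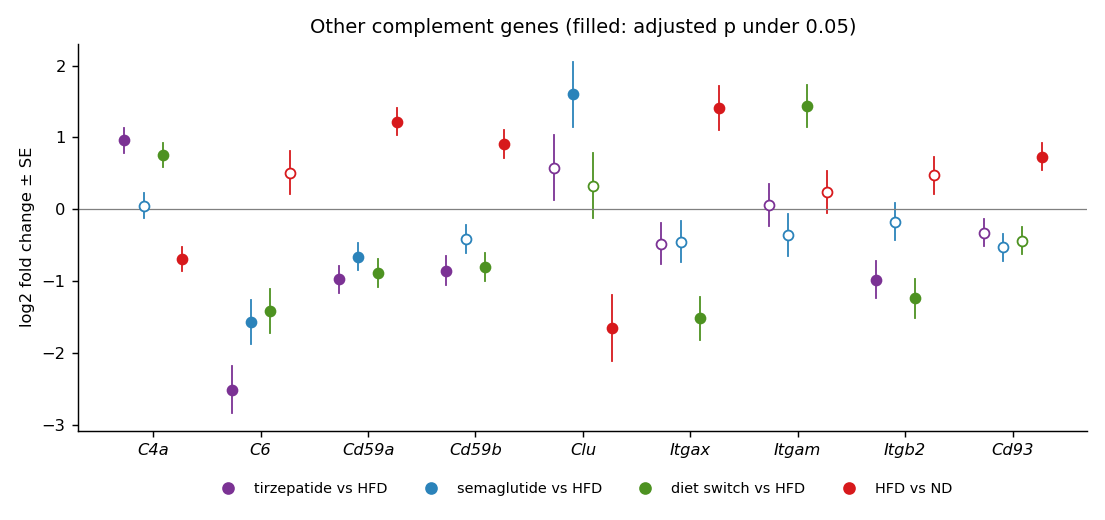
Log2 fold change (± SE) of 9 other complement genes in the 3 interventions against HFD and in HFD against ND, with filled points for those that passed the test. C6 and Cd59a are below 0 in all 3 interventions, and Cd59a is at 1.22 in HFD against ND.

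Across the 40 libraries, the genes whose log2 level was most like that of Cfd among 12746 genes ranked were Apoe (Pearson r = 0.927), Gpx3 (0.884), Cyp2f2 (0.880), Prtn3 (0.873) and Agt (0.844). These correlations are descriptions: the points share the groups, and with group means removed r was 0.752 for Apoe and 0.602 for Prtn3. Prtn3, which encodes proteinase 3 of neutrophil granules, lies 7678 bases upstream of Cfd on the same strand. Its medians were 18.9 CPM with tirzepatide, 9.996 CPM with semaglutide, 11.2 CPM after the diet switch, 2.35 CPM in HFD and 11.9 CPM in ND tissue. It was lower in HFD than in ND (log2 fold change -2.65 ± 0.41, adjusted p = 3.02e-05) and higher than in HFD by 3.08 ± 0.41 with tirzepatide, 2.57 ± 0.41 with semaglutide and 2.51 ± 0.41 after the switch (largest adjusted p = 1.29e-04). The summed level of 6 neutrophil markers ranged over 6.95 to 35.0 CPM with tirzepatide, 8.27 to 29.5 CPM with semaglutide, 8.25 to 57.6 CPM after the diet switch, 19.8 to 46.2 CPM in HFD and 11.6 to 31.5 CPM in ND tissue. Of the 3 neutrophil markers with enough counts to test, S100a8 was higher in HFD than in ND by 1.16 ± 0.34 (adjusted p = 0.0371) and lower than in HFD in all 3 interventions (log2 fold changes of -2.32 with tirzepatide, -1.62 with semaglutide and -1.52 after the switch, largest adjusted p = 0.00289). S100a9 was higher after the switch than in HFD by 2.20 ± 0.51 (adjusted p = 0.00174), and Csf3r passed none of these 4 tests. The other 3 markers were too low to test. Over the 8 libraries of the tirzepatide, semaglutide, diet switch, HFD and ND groups, Mpo, which encodes another neutrophil granule enzyme, had 2, 12, 4, 0 and 5 counts. In the same order Ly6g had 5, 5, 0, 0 and 1, and Retnlg had 43, 30, 31, 60 and 60. Elane, a further neutrophil granule enzyme gene outside those 6 markers, had 50, 54, 45, 12 and 39 counts. Its total was thus lowest in HFD, as that of Prtn3 was. The part of neutrophils in the Prtn3 values was not tested. The genes most like C1qa were Cbr2 (0.884), Timp2 (0.824), Clec10a (0.822), Alox5ap (0.810) and Plekho2 (0.808). Of the 5 genes most like C3, Cyp2f2 (0.728) led, and those most like C4b were led by C4a (0.967) and then Pacsin3 (0.748).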

How the data were processed

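RNA from sWAT of 5 groups of 8 samples was read by QuantSeq, per the labels' protocols. The authors deposited a table of raw counts per gene symbol for the 40 libraries, made on mm10 per the submitters' processing notes; the sources used here name no aligner or counter. They also deposited a normalized table, whose signal values equal the deposited counts divided by 1 factor per library (largest relative spread of that ratio 1.64e-10); it served for this check only, and 16 of its columns match no sample and were not used. Libraries held 2115471 to 7445548 counts, with a median of 3765320. No pair of libraries within a group agreed within sampling noise.

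Counts were tested with edgeR 4.0.16 (R 4.3.3, limma 3.58.1): TMM normalization, filterByExpr, 1 quasi-likelihood fit over all 40 libraries and 10 comparisons, with Benjamini-Hochberg adjustment over 15807 genes and a threshold of 0.05. Tested genes held 99.39% of the counts. CPM use TMM-adjusted library sizes, and log2 CPM a prior count of 2. The SE is the log2 fold change divided by the square root of F. The fit was tested on simulated data. Ratios within a library were compared by exact permutation. DESeq2 1.42.0, limma-voom, other filters, a replicate block and omitted libraries were alternatives. All 9 members are named. Of 43 other complement genes in 4 lists, up to 4 per list with the smallest adjusted p are named, and for 4 members the 5 genes with the highest r and a mean of at least 2 log2 CPM. Members and lists were chosen with earlier results of these data known. Gene coordinates are from GENCODE M21 (GRCm38).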

Additional observations from a re-analysis of the deposited data

Results flagged for a closer look

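Semaglutide library 3 lay far from the other 7 libraries of its group in C2, at 3.79 log2 CPM (13.3 CPM), with a gap to the nearest library of 0.563 of the group's range. This was the only such library in 45 sets of member and group, where chance alone gives about 1 in 20. Its B cell markers averaged 5.97 log2 CPM, and it also held the lowest Cfd level of its group; the part of B cell content in these values was not tested.

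The 2 drugs differed from each other, in a test within 1 fit, for Cfd (log2 fold change 1.03 with tirzepatide over semaglutide) and for C4b (0.78). Semaglutide and the diet switch differed for C4b (log2 fold change -0.63 with semaglutide over the diet switch). The Cfd call between the drugs was lost on leaving out any 1 of several libraries. It was also lost without the libraries high in B cell or in muscle markers, as was the C4b call against the diet switch.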

How the results depend on the processing

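Over 90 values of a member in a comparison, 4668 alternatives were run: 4603 kept direction and side of the threshold, 46 lost a call, 19 gained one, and none that was called reversed, while 25 uncalled values changed sign in some alternative. With limma-voom or without the libraries high in B cell markers, 2 members were called with semaglutide against HFD, and with limma-voom 5 with tirzepatide against HFD. Semaglutide against ND had 2 called with DESeq2 or limma-voom and 1 with only both groups fitted. The diet switch against ND had 0 called with no low-count filter, with only both groups fitted, against a fold of 1.2 (glmTreat) or without diet switch libraries 3, 4 and 7, and its comparison with HFD had 2 without those libraries, a setting chosen after seeing the data. Tirzepatide against semaglutide had 1 called with no filter, against a fold of 1.2, or without the libraries high in muscle or in B cell markers. Semaglutide against the diet switch had 0 called against a fold of 1.2, without either of those sets, or without diet switch libraries 3, 4 and 7. Leaving out 1 library at a time gave 3 to 4 called for HFD against ND, 3 to 4 for tirzepatide, 1 to 2 for semaglutide and 3 to 5 for the diet switch against HFD, 0 to 0, 0 to 1 and 0 to 2 for the same groups against ND, 1 to 2 for tirzepatide against semaglutide, 1 to 1 for semaglutide and 0 to 0 for tirzepatide against the diet switch. Fold changes against 1.2 as a minimum also cost the calls of C4b in HFD against ND (adjusted p = 0.154), of C3 with tirzepatide (adjusted p = 0.0673) and of C1qc after the diet switch against HFD (adjusted p = 0.0631), the last also lost with no low-count filter (adjusted p = 0.0539). Deviations of same-numbered libraries from their group means correlated weakly (80 pairs, r between -0.349 and 0.259, 18 over 0.1). Of 40 libraries, 9 were closest to their own number. No chance level was computed for these values, so pairing by number was not excluded. With the replicate block the count of members called was unchanged in all 10 comparisons. It was 4 in HFD against ND, 4 with tirzepatide, 1 with semaglutide and 4 after the diet switch against HFD. Counts over all genes moved by more than 1.5 times in each comparison, over 378 to 1308 for HFD against ND (712 as reported), 1666 to 4488 for tirzepatide (3246), 253 to 1287 for semaglutide (656) and 1148 to 5023 for the diet switch against HFD (3759), 542 to 2483 (1591), 159 to 970 (417) and 112 to 3938 (2338) for the same groups against ND, 382 to 2111 for tirzepatide against semaglutide (1584), 276 to 3644 for semaglutide against the diet switch (2101) and 1 to 456 for tirzepatide against the diet switch (63). The causes were not tested. At these depths Cfb, at 5.97 CPM or less, could not be resolved.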
